A study of Mus musculus with 10 samples.

Results

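The 40 genes described here encode the protein-folding and quality-control machinery of the endoplasmic reticulum (ER) and the sensors of the unfolded protein response (UPR). They were listed by name, in a list drawn up with earlier results of these data known, and are 40 of the 43629 genes in the count table. By role they comprise 11 folding chaperones and co-chaperones, 5 genes of disulfide formation, 5 sensors and transcription factors, 9 genes of ER-associated degradation, 7 of protein translocation into the ER and 3 of COPII-coated export vesicles. Liver RNA was measured by RNA-seq in 10 male KL mice, a Cre-inducible genetic model of lung cancer that carries a floxed Lkb1 gene (Lkb1 flox/flox, backcrossed to FVB), which received an adenovirus with Cre recombinase under the CMV promoter (Ad5CMV-Cre) through the nose as adults, so that tumours formed in the lungs. All 10 mice in both groups shared this genotype and received the virus, and no tumour-free mice were analysed here. Cachexia developed some weeks after tumour induction, and the age of each mouse when its liver was taken is not given in the sources used here. The 5 mice with cancer anorexia–cachexia syndrome (CACS, mice 16 to 20) had weight changes between -33% and -29%, and the 5 without it (NCACS, mice 11 to 15) between -14% and -3%. Each liver is from 1 mouse. The comparison asks which of these genes differ between livers of cachectic and non-cachectic tumour-bearing mice. Total counts ran from 31459179 to 40746178 per liver, and all 40 genes were among the 14143 that passed the filter on low counts. The livers held hepatocyte RNA as labelled, with Alb, which encodes albumin, between 45741 and 107315 CPM (counts scaled to a common library size, with TMM normalization) in every liver.

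Secreted and membrane proteins enter the ER through the Sec61 channel, fold with the help of chaperones such as Hspa5 (BiP) and calreticulin, and gain disulfide bonds through protein disulfide isomerases. Proteins that fail to fold are returned to the cytosol and degraded, and those that fold leave in COPII vesicles. When unfolded protein builds up, the membrane sensors Ern1 (IRE1α), Eif2ak3 (PERK) and Atf6 switch on the UPR. IRE1α splices Xbp1 mRNA into the form that makes the active transcription factor, PERK lowers translation and raises Atf4, and Atf6 is cut to release its own transcription factor. Hepatocytes secrete most plasma proteins and hold abundant ER. Counts per gene do not separate spliced from unspliced Xbp1 and say nothing of the modification or cleavage of the sensors.

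The promoters of several of these genes hold letters that match the DNA elements of the UPR, and they are shown here because such elements are known from the promoters of UPR target genes. RefSeq windows of 300 bases (250 before to 50 after the transcription start, GRCm38.p6) were found for 35 of the 40 genes, and Atf6, Derl1, Hyou1, Manf and Sec61a1 had no entry. The ER stress response element (ERSE) was searched on both strands as CCAAT, then 9 bases of any kind, then CCACG. It was found in 10 of 35 members (28.6%), namely Calr, Canx, Creld2, Derl3, Dnajc3, Ero1lb, Hsp90b1, Hspa5, Pdia6 and Syvn1, and in 0.137% of the 27025 genes with a window. ERSE-II, searched as ATTGG, then 1 base of any kind, then CCACG, was found in Dnajb11 and Herpud1 (2 of 35 members) and in 0.0444% of all windows. The core of the UPR element, TGACGTGG, was found in Sec24d alone among the members and in 0.714% of all windows. Its last letters are the reverse complement of the CCACG of both ERSE forms, so the motifs can overlap. The Atf4 element TGATGCAA was found in Herpud1 alone among the members and in 1.03% of all windows. Below, 250 bases up to the base before the RefSeq start are printed 5′ to 3′ on the strand of the gene, with the fixed letters of ERSE or ERSE-II and the Atf4 element in capitals and all other bases in lower case. Hspa5 is shown as the central chaperone, Herpud1 as the member with the smallest p, Pdia6 and Derl3 as members with large differences between groups, and Calr as an abundant chaperone.
Hspa5 (chr2:34771840-34772089, plus strand): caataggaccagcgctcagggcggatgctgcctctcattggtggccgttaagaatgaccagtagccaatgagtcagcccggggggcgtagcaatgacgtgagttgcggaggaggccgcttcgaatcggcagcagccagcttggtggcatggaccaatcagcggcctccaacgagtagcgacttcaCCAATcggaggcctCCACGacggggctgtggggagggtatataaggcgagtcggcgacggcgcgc
Herpud1 (chr8:94386179-94386428, plus strand): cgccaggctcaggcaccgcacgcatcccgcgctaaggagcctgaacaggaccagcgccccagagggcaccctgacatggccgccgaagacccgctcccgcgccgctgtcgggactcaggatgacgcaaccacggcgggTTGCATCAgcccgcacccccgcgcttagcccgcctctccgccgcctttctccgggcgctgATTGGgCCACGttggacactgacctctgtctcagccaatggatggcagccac
Pdia6 (chr12:17266339-17266588, plus strand): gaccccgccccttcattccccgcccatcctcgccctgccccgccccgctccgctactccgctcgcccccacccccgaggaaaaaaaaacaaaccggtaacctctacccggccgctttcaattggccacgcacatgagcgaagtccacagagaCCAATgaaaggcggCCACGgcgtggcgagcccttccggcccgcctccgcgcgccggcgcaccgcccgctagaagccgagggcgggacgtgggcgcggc
Derl3 (chr10:75893148-75893397, plus strand): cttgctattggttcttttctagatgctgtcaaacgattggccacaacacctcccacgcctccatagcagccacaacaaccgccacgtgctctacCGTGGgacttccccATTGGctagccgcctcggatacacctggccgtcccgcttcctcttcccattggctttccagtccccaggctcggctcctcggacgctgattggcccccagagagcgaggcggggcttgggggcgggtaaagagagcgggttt
Calr (chr8:84846932-84847181, minus strand): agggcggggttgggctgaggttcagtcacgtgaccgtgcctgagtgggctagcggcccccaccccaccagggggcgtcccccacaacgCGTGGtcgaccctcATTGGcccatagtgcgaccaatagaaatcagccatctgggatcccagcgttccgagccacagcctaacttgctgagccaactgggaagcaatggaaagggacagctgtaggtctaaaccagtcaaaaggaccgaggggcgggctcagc
In Hspa5 and Pdia6 the ERSE reads along the gene, and in Derl3 and Calr it reads on the other strand. The Hspa5 element ends 47 bases before the start, the Pdia6 element 80 bases, the Derl3 element 138 bases and the Calr element 144 bases. Herpud1 holds an ERSE-II that ends 42 bases before its start and an Atf4 element on the other strand that ends 105 bases before it. Hsp90b1 was the member with 2 ERSE matches. The GENCODE gene models of Hspa5, Pdia6 and Calr begin before the RefSeq start, so that the end of their printed runs lies within those models, and the Hspa5 element with it. Only exact letters counted, so an element with a differing letter is not among the matches. A match is a run of letters, not a measured binding site.

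**Figure D1:**
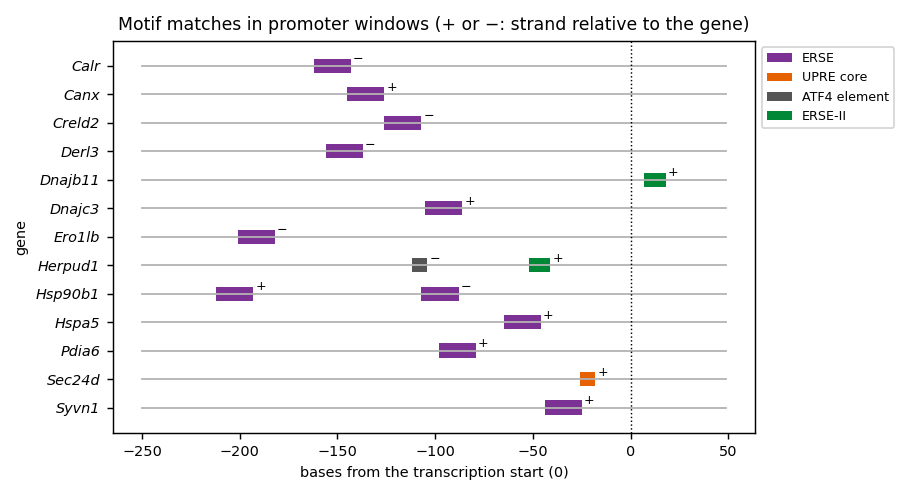
Positions of motif matches in the promoter windows of the 13 members with at least 1 match, in bases from the RefSeq transcription start at 0. Each bar is 1 match, coloured by motif, and all but the Dnajb11 match lie before the start.

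One liver stood apart from the others in these genes. NCACS mouse 13 had the highest level of all 10 livers in 26 of the 40 members (65.0%), in 50 of the 115 further ER genes tested (43.5%) and in 14.1% of all genes tested, where the other livers led in 5.36% to 14.6%. No other liver was the highest in more than 5 members. The median deviation of the 40 genes from their own 10-liver means was 0.475 on the log2 scale in NCACS mouse 13 and between -0.228 and 0.0374 in each of the other 9 livers, whereas over all genes tested it was -0.0150 in that liver. By role, the median deviation in NCACS mouse 13 was 0.736 for disulfide formation, 0.601 for translocation, 0.556 for folding chaperones, 0.350 for ER-associated degradation, 0.162 for COPII export and 0.121 for the sensors. Summed over the 40 genes, the NCACS livers held 8268, 7895, 10978, 6927 and 8044 CPM and the CACS livers 6843, 7206, 7616, 7895 and 7817 CPM, in the order of mouse numbers. The liver of NCACS mouse 13 was thus the highest, and the ranges of the groups overlapped. At the other end, CACS mouse 16 was the lowest liver in 12 members (30%, against 8.05% of all genes tested). NCACS mice 14 and 15 were each the lowest in 7 members (17.5%, against 9.86% and 14.8% of all genes tested). All 10 livers entered the fits below, and fold changes of the 40 genes without NCACS mouse 13 are given beside them or as a range. That liver was singled out after its levels were seen. In members where it was the highest, leaving it out lowers the NCACS mean, so an upward shift of the fold change follows from the choice.

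**Figure D2:**
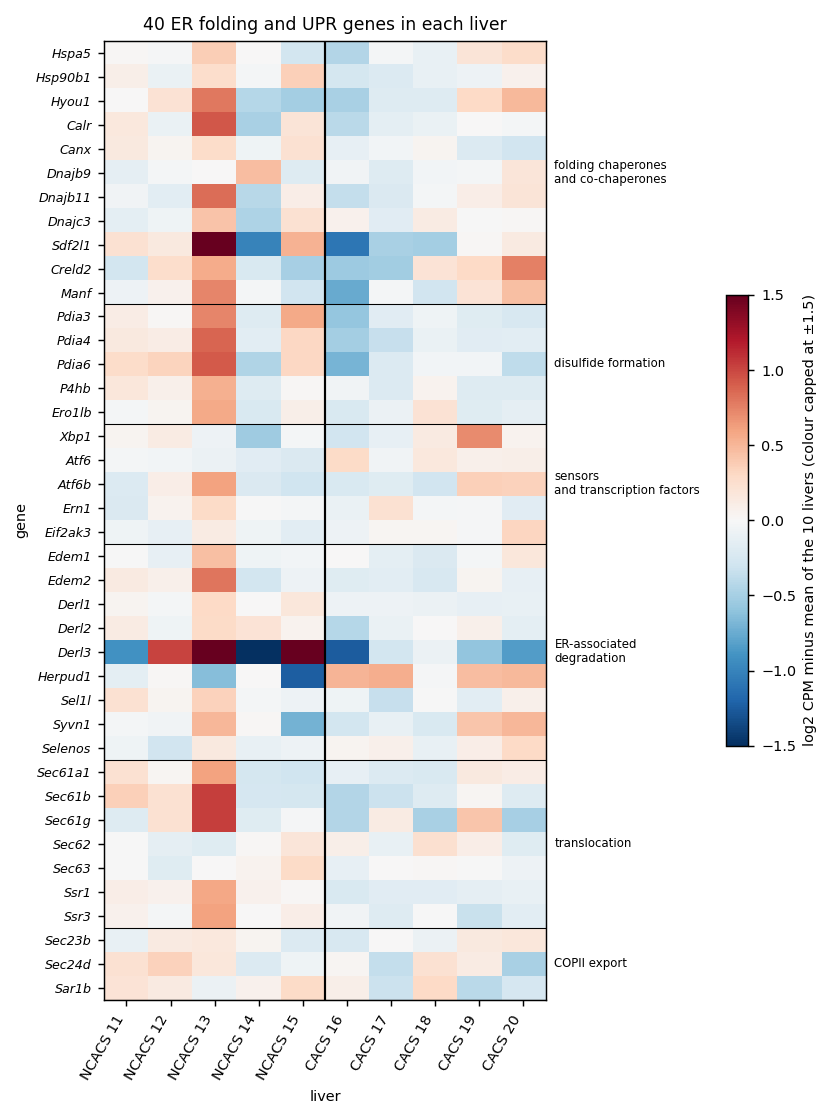
Level of each of the 40 genes (rows, by role) in each of the 10 livers (columns), as log2 CPM minus the mean of the 10 livers for that gene, with colour capped at ±1.5. The column of NCACS 13 is the one in which most folding, disulfide and translocation genes are highest, and Herpud1, Atf6 and Xbp1 are not.

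No member passed an adjusted p of 0.05 in either direction in the edgeR quasi-likelihood test over the 14143 genes, where 1.89% of genes were higher and 1.92% lower in CACS livers. At an unadjusted p under 0.05 in that test, 2 members were higher (Herpud1 and Atf6) and 11 lower (Canx, Sdf2l1, Pdia3, Pdia4, Pdia6, Derl1, Derl2, Derl3, Sec61b, Ssr1 and Ssr3). These are 5% and 27.5% of the members, against 11.3% and 10.3% of all genes. DESeq2 placed Herpud1 (higher, adjusted p = 0.0217) and Pdia4 (lower, adjusted p = 0.0407) past the threshold, with 4.22% of genes higher and 4.65% lower in that test. Limma-voom placed none of the members, and of the 14143 genes it called 238 higher and 271 lower. In no member were all CACS livers above all NCACS livers (3.95% of all genes), and in Derl1 and Ssr1 all CACS livers were below all NCACS livers (3.13% of all genes). The fitted log2 fold change, CACS over NCACS, was negative in 32 members and positive in 8, with a median of -0.18 against -0.01 over all genes tested, of which 50.6% were negative. Without NCACS mouse 13 the median of the members was -0.08, 22 were negative and 18 positive, 10 had changed sign, and none passed the adjusted threshold. In that fit 3 members were higher at an unadjusted p under 0.05 in edgeR (Atf6, Herpud1 and Selenos, where 10.5% of all genes were) and 3 lower (Pdia3, Pdia4 and Ssr1, where 9.96% were). Without CACS mouse 16, the lowest liver in 12 members, the median of the members was -0.14. It was also -0.14 without CACS mouse 17, the lowest liver in 3 members. These are bulk livers, in which fewer cells of a type and less RNA per cell cannot be told apart.

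**Figure D3:**
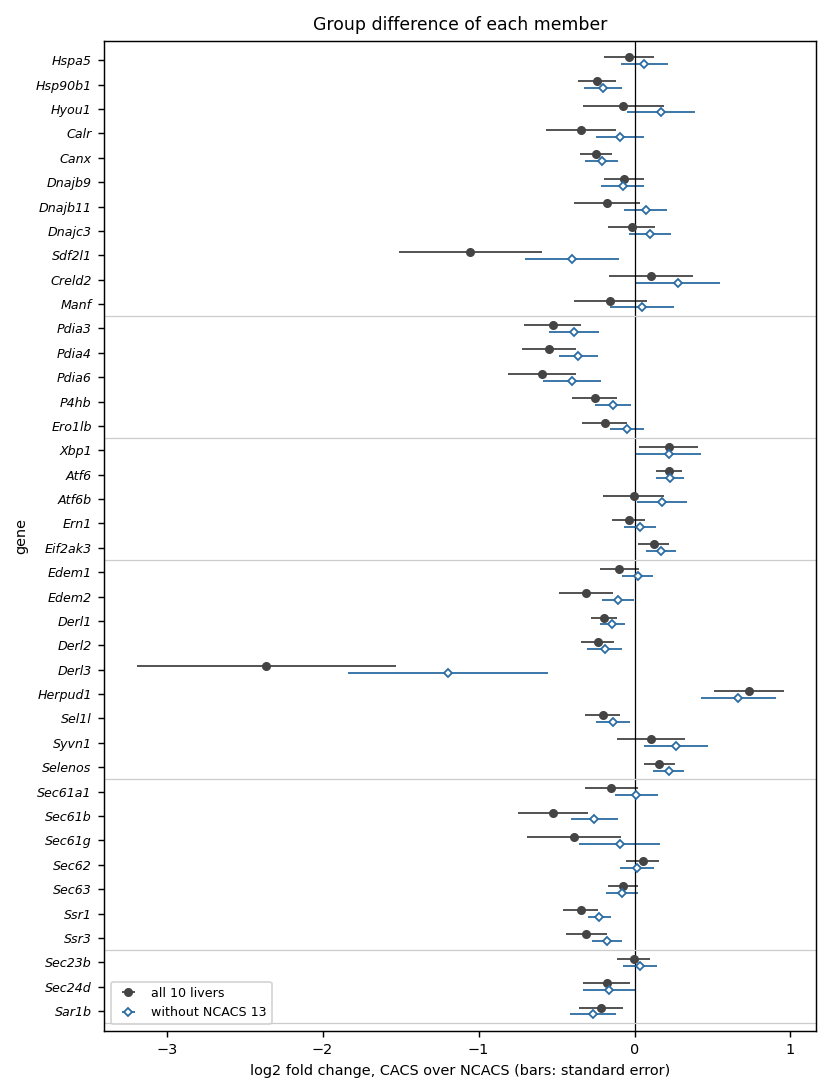
Log2 fold change of each member, CACS over NCACS, with its standard error as a bar, from the fit of all 10 livers (circles) and from the fit without NCACS 13 (open diamonds). Most circles lie left of 0 with a median of -0.18, and the diamonds centre closer to 0 with a median of -0.08.

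The log2 fold change was negative in 9 of the 12 members with a match of ERSE or ERSE-II, with a median of -0.18, and in 19 of the 23 members whose window held neither, with a median of -0.20. Without NCACS mouse 13 the medians were 0.01 and -0.10. NCACS mouse 13 was the highest liver in 8 of the 12 and in 14 of the 23.

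Among the folding chaperones, the central one did not differ detectably between the groups. Hspa5 (ENSMUSG00000026864, chr2:34771970-34777547) encodes BiP, the Hsp70-type chaperone of the ER that also holds the UPR sensors inactive. Its level was 637, 623, 813, 629 and 521 CPM in NCACS mice 11 to 15 and 465, 616, 583, 721 and 759 CPM in CACS mice 16 to 20. The highest liver was NCACS 13 and the lowest CACS 16, and the ranges overlapped almost wholly. The log2 fold change was -0.04 (SE 0.16, edgeR adjusted p = 0.926, exact permutation p = 0.810), with a 95% interval of -0.38 to 0.31. It was 0.06 both without NCACS mouse 13 and without CACS mouse 16.

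Canx (ENSMUSG00000020368, chr11:50293961-50325673), which encodes the membrane-bound lectin chaperone calnexin, was measured at 314, 291, 342, 271 and 331 CPM in the NCACS livers and 260.4, 276, 290.2, 246 and 231 CPM in the CACS livers. CACS livers 18 and 17 lay within the NCACS range and the other 3 below it. Its log2 fold change was -0.25 (SE 0.10, edgeR unadjusted p = 0.0347, adjusted p = 0.193, exact permutation p = 0.0317), and -0.21 without NCACS mouse 13. Calr, the soluble partner of calnexin, showed the single high liver more plainly, with 861, 715, 1463, 547 and 876 CPM in NCACS livers and 583, 692, 716, 769 and 753 CPM in CACS livers. Its log2 fold change of -0.34 (SE 0.22, edgeR adjusted p = 0.398) was -0.09 without NCACS mouse 13. Sdf2l1, a component of the large ER chaperone complex, had the widest spread of this role, with 22.7, 21.3, 78.9, 9.64 and 27.7 CPM in NCACS livers and 9.07, 13.8, 13.5, 19.6 and 21.2 CPM in CACS livers. Its log2 fold change was -1.05 (SE 0.46, edgeR unadjusted p = 0.0413, adjusted p = 0.210) with all livers and -0.40 without NCACS mouse 13, and the NCACS range held all CACS livers but CACS 16. Of the other chaperone genes, Hsp90b1 (the ER Hsp90, Grp94), Hyou1 (a nucleotide exchange factor for BiP), the BiP co-chaperones Dnajb9, Dnajb11 and Dnajc3, Manf and Creld2 had log2 fold changes between -0.24 (Hsp90b1) and 0.11 (Creld2). None of them had an unadjusted p under 0.05 in edgeR. With NCACS mouse 13 left out, they ran from -0.20 (Hsp90b1) to 0.28 (Creld2), and Hyou1, Dnajb11, Dnajc3 and Manf turned from negative to positive values, between 0.05 (Manf) and 0.17 (Hyou1). Across the 11 genes of this role the median log2 fold change was -0.15, and 0.05 without NCACS mouse 13.

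The genes of disulfide formation gave the largest median difference of the 6 roles, toward lower levels in CACS livers. The 5 genes had a median log2 fold change of -0.52 and NCACS mouse 13 was the highest liver in all 5. Without it the median was -0.36, and all 5 remained negative. Pdia4 (ENSMUSG00000025823, chr6:47796141-47813430), which encodes the isomerase ERp72, was measured at 224, 219, 369, 181 and 251 CPM in NCACS livers and 142, 159, 188, 180.5 and 181 CPM in CACS livers. NCACS 14 lay among the CACS livers, and the other 4 NCACS livers lay above all of them. The means were 249 ± 71.7 CPM in NCACS livers and 170.3 ± 19.1 CPM in CACS livers (mean ± SD, n = 5 each). The fitted log2 fold change was -0.55 (SE 0.17, edgeR unadjusted p = 0.0088, adjusted p = 0.101, exact permutation p = 0.0238), with a 95% interval of -0.93 to -0.17, and -0.36 without NCACS mouse 13.

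Pdia3 (ENSMUSG00000027248, chr2:121413775-121438687), the isomerase ERp57 that works on glycoproteins held by calnexin and calreticulin, was measured at 459, 432, 709.9, 372 and 630.5 CPM in NCACS livers and 285, 379.6, 407, 376 and 362 CPM in CACS livers. NCACS 13 and NCACS 15 were the highest livers, NCACS 14 lay among the CACS livers, and CACS 16 was the lowest. Its log2 fold change was -0.52 (SE 0.18, edgeR unadjusted p = 0.0139, adjusted p = 0.124, exact permutation p = 0.0317), and -0.39 without NCACS mouse 13. Pdia6 (ENSMUSG00000020571, chr12:17266545-17284770), a BiP-associated isomerase, was measured at 377, 392, 589, 228 and 387 CPM in NCACS livers and 193, 270.3, 302, 303 and 241 CPM in CACS livers. As for Pdia4, all 5 CACS livers lay below 4 of the NCACS livers, and NCACS 14 lay among them. Its log2 fold change was -0.59 (SE 0.22, edgeR unadjusted p = 0.0192, adjusted p = 0.142, exact permutation p = 0.0635), and -0.40 without NCACS mouse 13. P4hb, the abundant classical isomerase, had a log2 fold change of -0.26 (edgeR adjusted p = 0.327) and Ero1lb, the oxidase that recharges the isomerases, -0.19 (edgeR adjusted p = 0.474). Both were smaller without NCACS mouse 13, at -0.14 and -0.05. Pdia3 overlaps Catsper2 and Pdia6 overlaps Atp6v1c2 on the opposite strand, and whether the authors counted by strand is not given in the sources used here.

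The sensors had a median of the opposite sign. Their median log2 fold change was 0.12, and 0.18 without NCACS mouse 13, but none of the 5 passed the adjusted threshold. Atf6 (ENSMUSG00000026663, chr1:170704674-170867771) encodes the sensor that is itself cut into a transcription factor. It was measured at 59.9, 59.6, 57.6, 54.6 and 52.7 CPM in NCACS livers and 74.7, 59.2, 68.3, 64.4 and 65.1 CPM in CACS livers. Of the 5 CACS livers, 4 lay above every NCACS liver and CACS 17 within their range. The fitted log2 fold change was 0.22 (SE 0.082, edgeR unadjusted p = 0.0199, adjusted p = 0.145, exact permutation p = 0.0238), with a 95% interval of 0.04 to 0.40, and 0.23 without NCACS mouse 13, which was not an extreme liver for this gene.

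Xbp1 (ENSMUSG00000020484, chr11:5520659-5525893), the target of IRE1α splicing, was measured at 277, 292, 255, 185 and 263 CPM in NCACS livers and 220.0, 248, 294, 439.5 and 278 CPM in CACS livers. CACS 19 stood above all others, and the other 4 CACS livers lay near or within the NCACS range. The log2 fold change was 0.22 (SE 0.19, edgeR adjusted p = 0.537, exact permutation p = 0.413, 95% interval -0.19 to 0.63), 0.22 without NCACS mouse 13 and 0.03 without CACS mouse 19. Ern1 (ENSMUSG00000020715, chr11:106394650-106487852), which encodes IRE1α, was measured at 74.6, 89.97, 106, 86.5 and 85.02 CPM in NCACS livers and 81.1, 101, 84.9, 85.9 and 77.2 CPM in CACS livers. The CACS range lay within the NCACS range, and the log2 fold change was -0.04 (SE 0.11, edgeR adjusted p = 0.877, exact permutation p = 0.706, 95% interval -0.28 to 0.20), and 0.04 without NCACS mouse 13. Eif2ak3 (ENSMUSG00000031668, chr6:70844515-70905245), which encodes PERK, was measured at 16.6, 16.01, 18.95, 16.6 and 15.6 CPM in NCACS livers and 16.5, 17.8, 17.8, 17.3 and 21.9 CPM in CACS livers. CACS 20 was the highest of all livers and the rest overlapped, with a log2 fold change of 0.12 (SE 0.099, edgeR adjusted p = 0.507, exact permutation p = 0.206, 95% interval -0.09 to 0.34). It was 0.17 without NCACS mouse 13 and 0.05 without CACS mouse 20. Atf6b, the paralogue of Atf6, had a log2 fold change of -0.01 (edgeR adjusted p = 0.989), and 0.18 without NCACS mouse 13.

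In ER-associated degradation the member with the smallest p of all 40, Herpud1, was higher in CACS livers, whereas most others of this role had negative fold changes. Herpud1 (ENSMUSG00000031770, chr8:94386438-94395377) encodes a membrane protein of the ubiquitin ligase complex that sends misfolded proteins to the proteasome. Its level was 363, 406, 257, 403 and 171 CPM in NCACS livers and 569, 586, 395, 550.1 and 562 CPM in CACS livers. Of the CACS livers, 4 lay above every NCACS liver, CACS 18 lay just under the top of the NCACS range, and NCACS 15 was the lowest. NCACS 13, the highest liver for most members, was the second lowest here. The means were 319.9 ± 103 CPM in NCACS livers and 533 ± 77.9 CPM in CACS livers (mean ± SD, n = 5 each). This gave a log2 fold change of 0.74 (SE 0.22, 1.66-fold, edgeR unadjusted p = 0.0067, adjusted p = 0.0880, exact permutation p = 0.0238), with a 95% interval of 0.25 to 1.22. It was 0.67 without NCACS mouse 13 and ranged from 0.58, without NCACS mouse 15, to 0.84, without NCACS mouse 12, over the fits that left out a single mouse. The antisense gene Gm15890 overlaps it, and strand-specific counting is not given in the sources used here.

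Derl3 (ENSMUSG00000009092, chr10:75893413-75895941), a derlin of the retrotranslocation channel that is typical of strongly secreting cells, had the largest fold change and the largest spread. It was measured at 1.69, 6.55, 36.1, 0.602 and 11.1 CPM in NCACS livers and 1.32, 2.65, 3.03, 2.11 and 1.78 CPM in CACS livers, from 20 to 1116 counts per liver. NCACS 13 alone stood far above, and NCACS 14 was the lowest of all livers. The log2 fold change was -2.36 (SE 0.83, edgeR unadjusted p = 0.0151, adjusted p = 0.128), and the exact permutation test on the log2 CPM gave p = 0.286. Without NCACS mouse 13 the log2 fold change was -1.20, and limma-voom with all livers gave -1.21 (adjusted p = 0.517). Because plasma cells and the exocrine pancreas express Derl3 strongly, their markers are given beside it. Of the 10 plasma-cell and B-cell markers, 8 were tested and all 8 had negative fold changes, none past the adjusted threshold in edgeR. Their summed level ran from 23.3 to 50.4 CPM in NCACS livers and from 15.7 to 25.6 CPM in CACS livers. It was 27.2 CPM in NCACS 13 and highest in NCACS 14, the liver with the least Derl3. Ighm (20.2 CPM) and Igkc (17.4 CPM) were the largest parts of the sum in NCACS 14. Jchain was at 2.13 CPM in NCACS 13 and 4.34 CPM in NCACS 14, and Mzb1 at 0.388 and 0.331 CPM. The defining acinar markers Pnlip, Cpa1, Cpb1, Prss2, Ctrb1 and Amy2a1 and also Cela3b were at or near 0 in every liver, with at most 0.0845 CPM. Cela2a, the other pancreas marker that was tested besides Cela1, was at 0.237, 0.324, 1.33, 0.301 and 0.556 CPM in NCACS livers and 0.924, 1.81, 0.457, 3.61 and 1.66 CPM in CACS livers. Its log2 fold change was 1.64 (SE 0.58, edgeR unadjusted p = 0.0160, adjusted p = 0.132, DESeq2 adjusted p = 0.0439), and NCACS 13 was its highest NCACS liver and below 3 CACS livers. The 9-gene pancreas list summed to 43.3 to 57.5 CPM in NCACS livers and 10.7 to 25.7 CPM in CACS livers, most of it Cela1, which was lower in CACS livers (log2 fold change -1.54, edgeR adjusted p = 0.0110). The part of these markers in the Derl3 values was not tested.

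Derl1, chosen after its values were seen because the groups did not overlap, was measured at 112, 106, 133, 109 and 122 CPM in NCACS livers and 103, 103, 103, 99.5 and 101 CPM in CACS livers. The CACS livers lay close together and all below the lowest NCACS liver, with a log2 fold change of -0.19 (SE 0.083, edgeR adjusted p = 0.202), and -0.14 without NCACS mouse 13. The exact permutation p of 0.00794 is the smallest that 5 against 5 livers allow, and this p was computed for each of the 40 members and not adjusted. Derl2 had a log2 fold change of -0.24 (edgeR unadjusted p = 0.0488, adjusted p = 0.228), and -0.19 without NCACS mouse 13. The mannosidase-like lectins Edem1 and Edem2 and the ligase adaptor Sel1l had values of -0.10, -0.31 and -0.20, the ubiquitin ligase Syvn1 (Hrd1) 0.11, and Selenos, a selenoprotein of the degradation machinery, 0.16. None of these 5 had an unadjusted p under 0.05 in edgeR with all livers. Without NCACS mouse 13, Edem1 was at 0.02, Edem2 at -0.10, Sel1l at -0.14, Syvn1 at 0.27 and Selenos at 0.22, so that Edem1 changed sign. Syvn1 also changed sign without NCACS mouse 15, to -0.02.

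**Figure D4:**
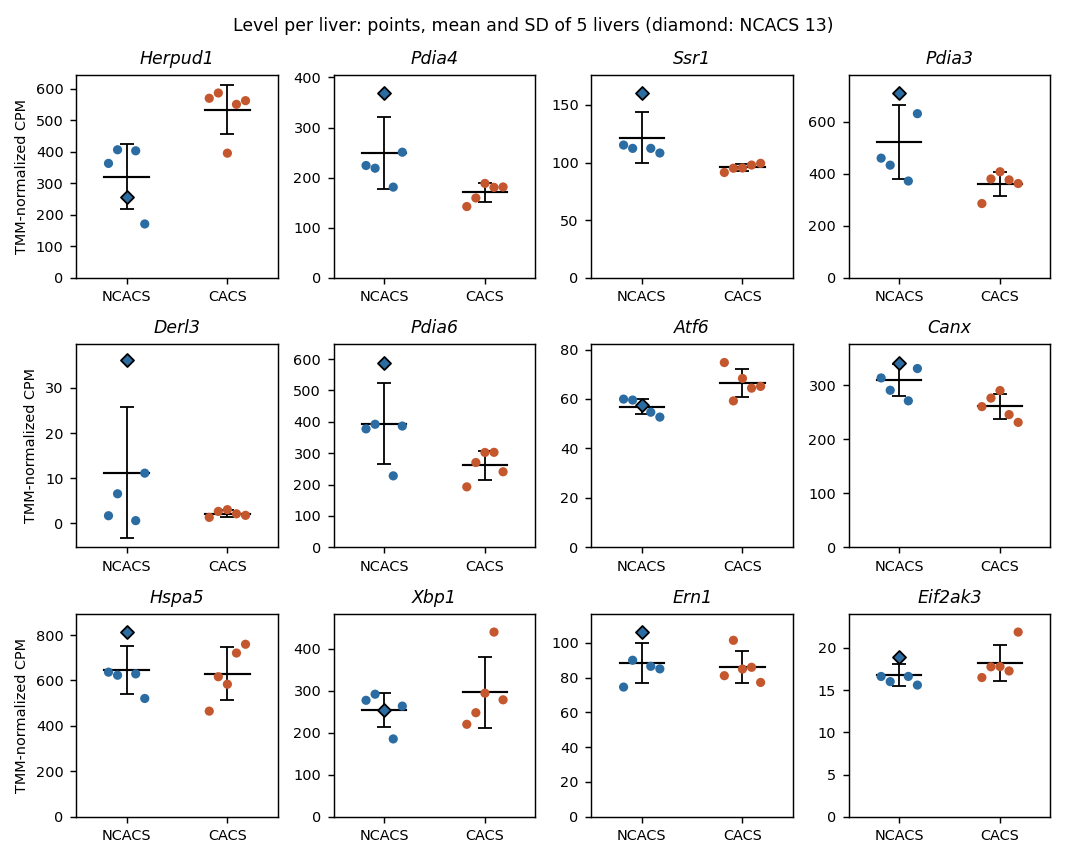
CPM of 12 members in each liver (points), with the mean and SD of 5 livers per group, NCACS in blue and CACS in orange and NCACS 13 as a diamond. The diamond is the top point of all 10 in Pdia4, Ssr1, Pdia3, Derl3, Pdia6, Canx, Hspa5 and Ern1, and lies within or below its group in Herpud1, Atf6 and Xbp1.

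Of the 7 translocation genes, 6 had negative fold changes, with a median of -0.31, and -0.10 without NCACS mouse 13. Ssr1 (ENSMUSG00000021427, chr13:37966605-37994217) encodes the α subunit of the translocon-associated protein complex, which sits beside the Sec61 channel. It was measured at 115, 112, 160.3, 112 and 108 CPM in NCACS livers and 91.3, 95.03, 95.2, 97.8 and 99.3 CPM in CACS livers. Every CACS liver lay below every NCACS liver, and 4 of the NCACS livers lay close together with NCACS 13 far above. This is a log2 fold change of -0.35 (SE 0.11, edgeR unadjusted p = 0.0099, adjusted p = 0.106, exact permutation p = 0.00794), and -0.23 without NCACS mouse 13. Ssr3, the γ subunit of the same complex, had a log2 fold change of -0.31 (edgeR unadjusted p = 0.0389, adjusted p = 0.203) and Sec61b, the β subunit of the channel, -0.52 (edgeR unadjusted p = 0.0392, adjusted p = 0.204). Without NCACS mouse 13 these were -0.18 and -0.26. Sec61a1, the channel itself, had -0.15, and the accessory membrane proteins Sec62 and Sec63 had 0.05 and -0.07. Without NCACS mouse 13 these were 0.01, 0.02 and -0.08, a change of sign for Sec61a1. Sec61g had between 31 and 93 counts per liver, and its log2 fold change of -0.39 (SE 0.30), or -0.10 without NCACS mouse 13, is correspondingly imprecise.

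The COPII genes differed little. Sec23b and Sec24d, subunits of the inner coat, had log2 fold changes of -0.004 and -0.18, and Sar1b, the GTPase that starts coat assembly and serves lipoprotein export from hepatocytes, -0.22. Their edgeR adjusted p-values lay between 0.398 and 0.987, and NCACS mouse 13 was the highest liver in none of the 3. Without it the values were 0.04, -0.16 and -0.27.

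Per length, the members spanned from abundant to barely detected. On the scale of CPM per kilobase of merged exons, 6 members had a 10-liver mean of at least 100, 26 lay between 10 and 100, and 8 below 10. P4hb was the highest, at 522 ± 101 in NCACS and 438 ± 34.97 in CACS livers (mean ± SD, n = 5 each). Calr followed, at 309.8 ± 120.0 and 244 ± 25.5. Herpud1 came next on the mean over all livers, at 137 ± 44.1 and 228 ± 33.4, then Hspa5, at 152 ± 24.9 and 149 ± 27.6. These neighbours change places by group. In NCACS livers the mean level of Hspa5 exceeded that of Herpud1, and Pdia3, at 166 ± 45.5, lay above both. In CACS livers the mean level of Herpud1 exceeded that of Hspa5, and Pdia3, at 115 ± 14.7, lay below both. The sensors lay low, with Ern1 at 10.8 and 10.5, Atf6 at 6.16 and 7.19 and Eif2ak3 at 2.78 and 3.03 CPM per kilobase in NCACS and CACS livers. Sec61g was the lowest, at 0.701 and 0.534.

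**Figure D5:**
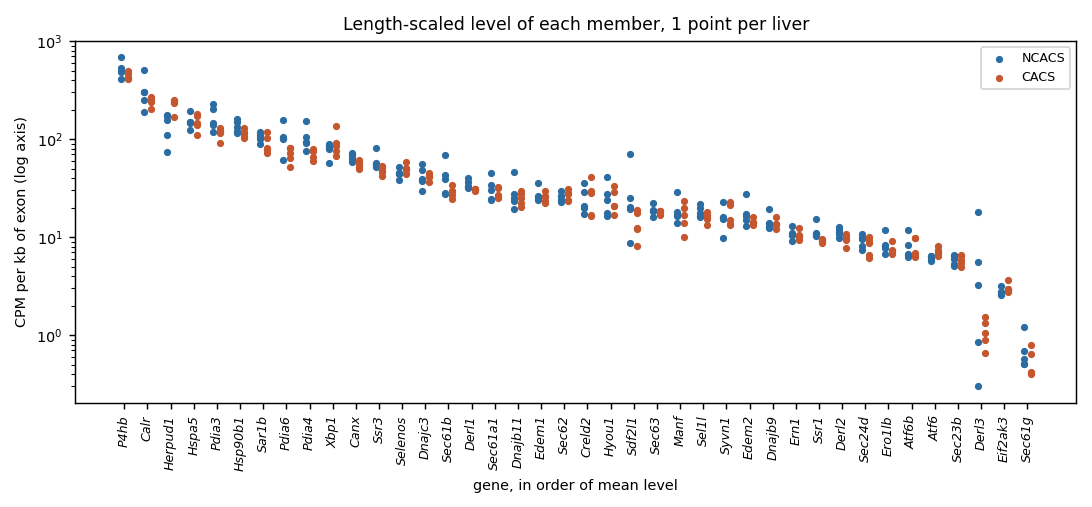
Level of each member per length (CPM per kilobase of exon, log axis) in each liver, NCACS and CACS side by side, in order of the mean over 10 livers. The order runs from P4hb to Sec61g, Derl3 has the widest spread, and Herpud1 is the gene near the top whose CACS points lie mostly above its NCACS points.

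A wider list of 116 further ER genes, of which 115 were tested, gave few differences. Of these, 62 had negative and 53 positive fold changes, with a median of -0.03. In the edgeR test at an adjusted p of 0.05, 0 were higher and 2 lower in CACS livers, Ergic1 and Bbc3, and at an unadjusted p under 0.05 in edgeR 8 were higher (6.96%) and 9 lower (7.83%), both smaller shares than over all genes. DESeq2 called 3 higher and 3 lower, and limma-voom 0 and 2. Over all genes edgeR called 1.89% higher and 1.92% lower, and DESeq2 4.22% and 4.65%. Limma-voom called 238 higher and 271 lower of 14143 genes. None of these calls in the list was a larger share than over all genes. Bbc3 encodes the pro-apoptotic protein Puma, and was measured at 5.31, 4.51, 12.2, 3.28 and 6.67 CPM in NCACS livers and 2.15, 0.997, 0.946, 0.761 and 0.945 CPM in CACS livers. The groups did not overlap, and NCACS 13 was again the highest, with a log2 fold change of -2.45 (SE 0.389, edgeR adjusted p = 0.0120). Ergic1, a membrane protein of the ER–Golgi intermediate compartment, was measured at 75.95, 79.6, 87.2, 77.6 and 88.1 CPM in NCACS livers and 62.2, 61.6, 72.2, 62.1 and 64.9 CPM in CACS livers. These groups did not overlap either, and the log2 fold change was -0.34 (SE 0.0805, edgeR adjusted p = 0.0419). Bbc3 passed in all 10 fits that left out 1 mouse, whereas Ergic1 passed in 1 of the 10, with adjusted p-values from 0.0451 to 0.0968.

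The PERK arm of the UPR is represented in that list. Atf4, its transcription factor, had a log2 fold change of 0.17 (edgeR adjusted p = 0.478) and Ddit3, which encodes the pro-apoptotic factor Chop, 0.13 (edgeR adjusted p = 0.756). In 3 of the 115 genes every CACS liver was above every NCACS liver, as in 3.95% of all genes, and in 4 (Bbc3, Ergic1, Stt3a and Tmbim6) every CACS liver was below, as in 3.13% of all genes. The 3 higher genes and Stt3a and Tmbim6 are named after their values were seen. Atf3, a stress-induced transcription factor, had a log2 fold change of 1.22 (edgeR adjusted p = 0.0580), Ppp1r15b, a regulatory subunit of the phosphatase that reverses PERK signalling, 0.31 (edgeR adjusted p = 0.0645), and Preb, which activates Sar1 at ER exit sites, 0.26 (edgeR adjusted p = 0.108). DESeq2 gave adjusted p-values of 0.00617 for Atf3 and 0.0120 for Ppp1r15b. By role within the list, the genes of translocation, signal peptidase and N-glycosylation had a median log2 fold change of -0.10 (15 of 25 negative), those of folding and glycan control -0.08 (19 of 26 negative), those of degradation -0.03 (10 of 20), the UPR regulators 0.04 (10 of 25) and the export genes 0.05 (8 of 19).

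Markers of other liver cells differed between the groups to different extents. The 8 Kupffer-cell and macrophage markers all had negative fold changes, with 1 of them (Cd5l) past the adjusted threshold in edgeR (adjusted p = 0.0374), and their summed level ran from 176 to 297 CPM in NCACS livers and from 107 to 211 CPM in CACS livers. Stellate-cell markers summed to 149.5 to 257 CPM in NCACS livers and 161 to 249 CPM in CACS livers. Of these 7 markers 4 had negative and 3 positive fold changes, none past the adjusted threshold in edgeR. Dcn, the largest part of the sum, had a log2 fold change of 0.34, whereas Col1a1 and Col3a1 had -1.27 and -0.96 (edgeR unadjusted p = 0.0472 and 0.0474). Sinusoidal endothelial markers summed to 114 to 163 CPM in NCACS livers and 153 to 187 CPM in CACS livers. Of the 8 hepatocyte markers 6 had positive fold changes, with Hnf4a past the threshold (edgeR adjusted p = 0.0435). Their summed level in NCACS 13, 79834 CPM, was above NCACS 15 (71371 CPM) and below the other 8 livers (104398 to 135655 CPM). Most of the sum was Alb, at 52622 CPM in NCACS 13 and 45741 CPM in NCACS 15. The markers did not share 1 order. For Trf NCACS 13 was the highest of all livers, at 2160 CPM, and for Apob the lowest NCACS liver, at 4684 CPM. In NCACS 13 the Kupffer-cell sum was 268 CPM and the stellate-cell sum 170 CPM, within the range of the other NCACS livers. The part of these other markers in the differences of the 40 genes was not tested either.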

How the data were processed

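Total RNA of each liver was made into stranded poly(A)-selected libraries and sequenced as single reads of 100 bases. Per the labels and the study's methods, the authors aligned reads to GRCm38 with STAR 2.4.1d and counted reads per gene with HTSeq 0.6.1. The deposited values are these raw counts, not normalized, for 43629 Ensembl genes. The annotation release and the strand setting are not given in the sources used here. The study's methods name a batch correction among the authors' analyses, but no label names a batch, so none entered the fits here. The study's own test was DESeq2. Counts were tested here with edgeR 4.0.16 in R 4.3.3 (filterByExpr, TMM, quasi-likelihood F test, Benjamini-Hochberg adjustment over all 14143 genes tested), with NCACS against CACS as the only term. A p past the threshold of 0.05 after adjustment was called. Alternatives were DESeq2 1.42.0, limma-voom 3.58.1, a robust fit, RLE factors or unscaled totals in place of TMM, a filter of 10 counts in all livers or none at all, and leaving out each mouse. Levels are CPM on TMM-scaled libraries, and log2 CPM used a prior count of 2. Exact permutation tests were two-sided over all assignments of 10 livers to 2 groups of 5. Standard errors were derived from the log2 fold change and F statistic of the edgeR fit, and 95% intervals from these with the t distribution. Their precision rests on 5 livers per group and on 31459179 to 40746178 counts per liver. The p-values set the group difference against the variation between individual mice. In edgeR the variation of each gene was moderated over all genes tested.

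Symbols, positions and exon lengths came from GENCODE M21 (GRCm38), in which 1167 of the count table's IDs were absent. Levels of different genes were compared only per kilobase of merged exons. Overlapping genes were found for 14 of the 40 members. Promoter windows were RefSeq's for GRCm38.p6, with Ero1lb matched through its synonym. The least different pair of livers within a group had a chi-square per degree of freedom of 50.1, so no pair was counted as 1 sample. The test scripts were checked on simulated counts. Values in every liver are given for Hspa5, Xbp1, Atf6, Ern1 and Eif2ak3 and, since no member passed, for the 8 members of smallest unadjusted p. Wider-list genes past the threshold were also named. The members, the wider list and the marker lists were chosen with earlier results of these data known.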

Additional observations from a re-analysis of the deposited data

Results flagged for a closer look

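In 5 of the 80 combinations of a member and a group, 1 liver lay farther from its group than Dixon's criterion allows on the log2 CPM scale, and chance alone flags about 1 in 20. Ssr1 in NCACS mouse 13 was highest at 160 CPM with the next NCACS liver at 115 CPM, a gap of 0.843 of the group's whole range. Edem1 in the same liver was highest at 231 CPM against 168 CPM, a gap of 0.793 of the range. Ssr3 in the same liver was highest at 335 CPM against 236 CPM, a gap of 0.792 of the range. Herpud1 in CACS mouse 18 was lowest at 395 CPM with the next CACS liver at 550.1 CPM, a gap of 0.839 of the range. Eif2ak3 in CACS mouse 20 was highest at 21.9 CPM against 17.8 CPM, a gap of 0.732 of the range.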

How the results depend on the processing

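Under the other normalizations, filters and tests the 40 genes kept a median log2 fold change between -0.19 and -0.16, and between -0.22 and -0.08 when single mice were left out, the last without NCACS mouse 13. DESeq2 called 1 member higher (Herpud1, 0.73) and 1 lower (Pdia4, -0.55), where edgeR called 0, and every fit without a single mouse called 0 and 0. Over all genes, edgeR called 538 in either direction with all livers. Without single mice it called between 178 (without NCACS mouse 11) and 519 (without CACS mouse 17). The count was 406 of 14143 genes with raw library totals and 392 of 24746 with no filter. At an unadjusted p under 0.05 in edgeR, the members higher numbered 1 to 3 without single mice, with 1 without CACS mouse 16. The members lower numbered 9 to 11 under other edgeR settings, 12 in DESeq2 and 8 in limma-voom, each at its own unadjusted p under 0.05. Without single mice they numbered 3 to 13, with 3 without NCACS mouse 13, 5 without CACS mouse 16 and 6 without CACS mouse 17. They numbered 7 without NCACS mouse 15 or without CACS mouse 20. Of all genes, 11.3% were higher and 10.3% lower in edgeR with all livers. Without NCACS mouse 13 these shares were 10.5% and 9.96%, and they were not computed for the other fits. In the wider list DESeq2 called 3 higher, and the fits without single mice 0 to 1, the 1 being without CACS mouse 18 or 20. Raw library totals and no filter each called 1 lower, and the fits without single mice 1 to 2, with 2 only without CACS mouse 17 or 18. Hspa5 ranged from -0.11 to 0.06 without single mice, reversing to 0.0626 without NCACS mouse 13 and 0.0574 without CACS mouse 16, and Ern1 from -0.10 to 0.04, reversing to 0.0360 without NCACS mouse 13. The cause was not tested. The median of all genes stayed within 0.03 of 0 in every fit. No paired analysis was possible because no mouse number occurs in both groups.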
